A study of Mus musculus with 12 samples.

Results

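Described here are 121 of the 36400 genes in the dorsal skin table, chosen because the KEGG column of the deposited file gives them the pathway name Cell cycle. The rule uses no measured value. By known function they were divided into 38 genes of G1/S control, 17 of replication licensing and DNA replication, 42 of G2 and mitosis, 7 inhibitors of cyclin-dependent kinases (CDKs) and 17 checkpoint and 14-3-3 genes. RNA was sequenced from dorsal skin of female BALB/c mice bought at an age of 6 weeks, in 3 libraries for each of 4 groups, all collected on day 30. Control skin was painted with the acetone and olive oil vehicle, and all other skin was sensitized with 1% and challenged with 0.5% DNCB (1-chloro-2,4-dinitrobenzene, a contact sensitizer that gives dermatitis like atopic dermatitis). The DNCB group received nothing further. The scMSC group was also injected 4 times, from day 13 to day 25, with 2000000 human umbilical cord mesenchymal stem cells (MSCs) in 100 µL under the skin beside the dermatitis. In the scivMSC group each of these doses was divided between 50 µL given subcutaneously and 50 µL through the tail vein. The hair of all groups was removed before sensitization and shaved again later. None of the 4 groups received the injection without cells, or MSCs without DNCB, so the cells and the injection cannot be told apart. The sources do not say whether each library came from a separate mouse, so the p-values measure only the spread between these libraries.

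A dividing cell passes a control point late in G1, when cyclin D with CDK4 or CDK6 and then cyclin E with CDK2 phosphorylate the retinoblastoma proteins and free the E2F factors. Origins of replication are licensed by loading the MCM helicase, fired by the kinase Cdc7 with Dbf4, and later cyclin B with Cdk1 drives mitosis until the anaphase-promoting complex destroys cyclin B and securin. CDK inhibitors hold these kinases back, and p53 raises one of them, Cdkn1a, after damage. In skin the cycling cells are mainly basal keratinocytes of the epidermis, cells of growing hair follicles, and activated stromal and immune cells. Because whole skin was sequenced, fewer cycling cells and less RNA per cell cannot be told apart.

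Levels are given in FPKM, fragments scaled to transcript length and to the size of the library, as the authors computed them. The estimated counts of the same table were tested with the quasi-likelihood F-test of edgeR, and a gene passed at a Benjamini-Hochberg adjusted p under 0.05 over all 21890 genes whose mean reached 0.1 FPKM. Of the 121 cell cycle genes, 118 were tested. The other 3, Smc1b, Ccna1 and Wee2, stayed under 0.1 FPKM in every library, and their known expression is mainly in germ cells. A log2 fold change is given ± the standard error of the fit, and its sign follows the first group named. Library totals lay between 63877153 and 75134001 estimated counts, and intervals of the fit widen for genes with few counts. Relative to this fit, scaling by library size alone, as in FPKM, moved the median log2 fold change of all genes to 0.20 in DNCB minus control, 0.16 in scMSC minus control and 0.21 in scivMSC minus control.

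Markers of other cell types moved with the groups. The summed level of 8 basal keratinocyte markers was 8229.9 to 10507 FPKM in the DNCB libraries and 1781 to 5541 in all others, and that of 8 neutrophil markers was 2519 to 3481 in DNCB and 20.9 to 223 elsewhere. A sum follows its most abundant markers. By gene, 4 of the 8 basal markers rose in DNCB minus control and 1 fell. Of 7 suprabasal keratinocyte markers 0 rose and 2 fell, where 12.9% of all tested genes rose and 12.4% fell. The 15 markers of hair matrix, hair shaft and inner root sheath that were in the file summed to 22.8 to 390.4 FPKM in control, 328 to 1009.8 in DNCB, 7528 to 21364 in scMSC and 2789 to 6818 in scivMSC. Skeletal muscle markers summed to 14648 to 20598 FPKM in control and 4115 to 10772 in the other groups, and 6 fibroblast markers to 1916 to 2233 in DNCB against 124 to 946 elsewhere. By gene, 4 of the 6 fibroblast markers rose in DNCB minus control. In DNCB minus scMSC 3 of them were higher, and in DNCB minus scivMSC 0. For the 8 neutrophil markers these counts were 7, 8 and 6. The shares of all tested genes were 12.9%, 5.77% and 3.6%. Of 6 skeletal muscle markers 5 fell in DNCB minus control. No keratinocyte, hair or fibroblast marker was at 0 in any library. Their part in the results on cell cycle genes was not tested.

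Between DNCB and control, 52 of the 118 tested genes rose and 4 fell, where 25.3% of all tested genes passed, 12.9% upward and 12.4% downward. Their median log2 fold change was 0.45, against 0.02 for all tested genes. In 86 of them every DNCB library lay above every control library on the FPKM scale, and in 6 below, where 31.7% and 16.1% of all tested genes did so. By role, 11 of 17 licensing and replication genes rose, with a median of 0.88, and 20 of 39 genes of G2 and mitosis, with a median of 0.45. Of the genes of G1/S control 11 of 38 rose and 2 fell, of the CDK inhibitors 1 of 7 rose, and of the checkpoint and 14-3-3 genes 9 of 17 rose. Without control 1, the library with the lowest mitotic levels, 37 of the 118 genes passed instead of 56.

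**Figure D1:**
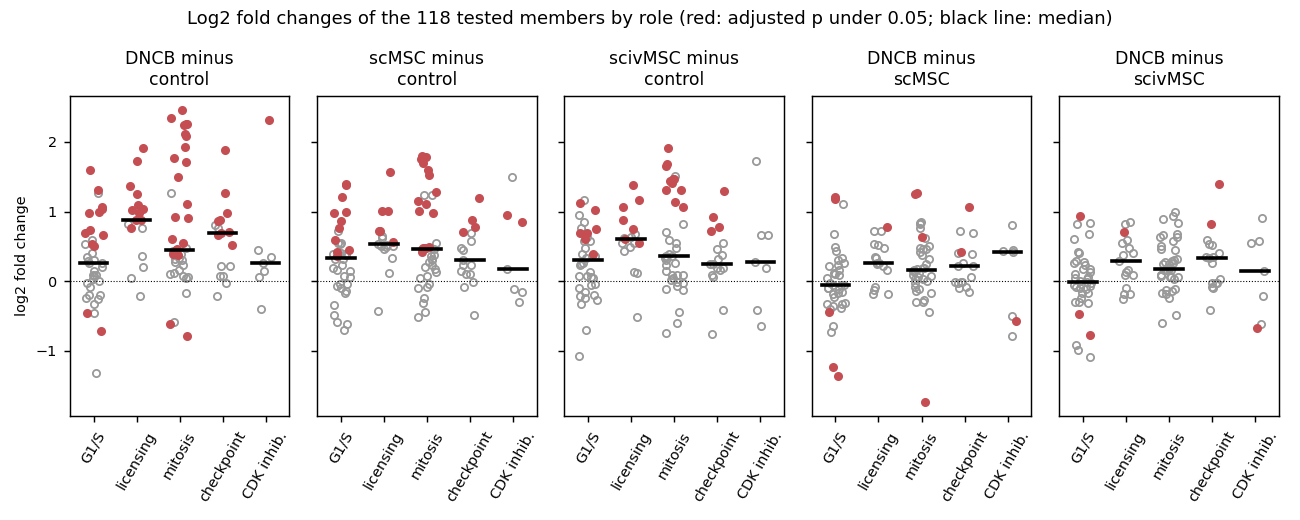
Log2 fold change of each of the 118 tested cell cycle genes (points) by role, in 5 comparisons named above the panels. Filled red points passed edgeR's test at an adjusted p under 0.05, open grey points did not, and the black bars are medians. In the first panel 52 genes are red above 0 and 4 below, while the last panels hold 13 and 7 red points.

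In scMSC minus control 39 of the 118 tested cell cycle genes rose and 0 fell, where 18.5% of all tested genes passed, 10.4% upward and 8.12% downward. In scivMSC minus control 29 rose and 0 fell, where 13.2% passed, 7.11% upward and 6.13% downward. By edgeR 4 and 8 of the 118 genes were lower at an unadjusted p under 0.05, and after adjustment DESeq2 called 46 and 36 higher and 2 and 6 lower, and limma on log2(FPKM + 0.1) called 55 and 50 higher and 0 and 0 lower. With libraries scaled by their size alone 57 and 50 genes passed. The medians were 0.42 and 0.36, against 0.00 and 0.04 for all tested genes. DNCB, scMSC and scivMSC were set against the same 3 control libraries. Without control 1 the counts were 12 for scMSC and 7 for scivMSC, and without control 3 they were 19 and 18. Without scMSC 2 or scMSC 3, 16 or 15 genes passed in scMSC minus control. Without scivMSC 2 or scivMSC 3, 11 or 19 passed in scivMSC minus control, and 19 without either DNCB 1 or DNCB 3, which enter through the shared estimate of the spread. With the 6 libraries of each comparison fitted alone, the counts were 12 and 10.

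In DNCB minus scMSC 8 cell cycle genes were higher and 5 lower, where 12.7% of all tested genes passed, 5.77% higher and 6.95% lower. In DNCB minus scivMSC 4 were higher and 3 lower, where 8.16% passed, 3.6% higher and 4.56% lower, so that both counts were near the share of all tested genes. DESeq2 called 11 higher and 8 lower against scMSC and 12 higher and 4 lower against scivMSC. With limma on log2(FPKM + 0.1), 9 were higher and 5 lower against scMSC and 4 higher and 3 lower against scivMSC. With a pseudocount of 1 limma called 15 and 11 in all. The medians over the 118 genes were 0.14 and 0.15, against -0.02 for all tested genes in both. The DNCB libraries lay wholly above scMSC in 29 genes and below in 14, where 17.1% and 16% of all tested genes did so, and wholly above scivMSC in 41 and below in 15, where 16.3% and 16.4% did. The count of 13 against scMSC was 4, 6 and 6 without DNCB 1, 2 and 3, and 5 without scMSC 2. The count of 7 against scivMSC was 1, 2 and 3 without DNCB 1, 2 and 3, 0 without scivMSC 1 and 3 without scivMSC 3. With a 2-fold minimum added, 26 cell cycle genes passed in DNCB minus control, 17 in scMSC minus control, 17 in scivMSC minus control, 8 in DNCB minus scMSC and 1 in DNCB minus scivMSC, where 14.2%, 9.32%, 6.85%, 8.5% and 5.46% of all tested genes did so.

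Genes of replication licensing and DNA replication formed the role with the largest median rise in DNCB minus control. Mcm5, a subunit of the MCM helicase that opens DNA at origins (ENSMUSG00000005410, GRCm38 chr8:75109569-75128439), was at 3.96, 5.73 and 3.69 FPKM in control 1 to 3, 18.6, 15.9 and 16.2 in DNCB 1 to 3, 7.85, 8.50 and 13.8 in scMSC 1 to 3 and 7.31, 11.4 and 9.37 in scivMSC 1 to 3. All DNCB libraries lay above all others, control 2 was the highest control, and scMSC 3 was the highest treated library. Its log2 fold change was 1.73 ± 0.26 (adjusted p = 0.0014) in DNCB minus control and 1.00 ± 0.26 (adjusted p = 0.0217) in scMSC minus control, the second being lost without control 1, control 3, scMSC 2 or scMSC 3. Against the treated groups, Mcm5 had an adjusted p of 0.0932 in DNCB minus scMSC and 0.0705 in DNCB minus scivMSC.

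All 6 MCM genes rose in DNCB minus control, with log2 fold changes from 0.88 for Mcm7 to 1.73 for Mcm5. Mcm2, Mcm3 and Mcm4 rose by 1.10, 1.02 and 1.04, and of the 6 calls only that of Mcm3 was lost when a single library was left out, which held for DNCB 1, DNCB 3 and each control library. In each MSC group minus control, 2 of the 6 passed, Mcm5 and Mcm7, and all 4 of these calls were lost without control 1 or without control 3. Mcm6 (ENSMUSG00000026355, GRCm38 chr1:128331590-128359664) was at 4.82, 4.59 and 4.13 FPKM in control 1 to 3, 12.6, 11.2 and 12.8 in DNCB 1 to 3, 6.38, 5.54 and 9.11 in scMSC 1 to 3 and 6.22, 8.86 and 7.33 in scivMSC 1 to 3. The DNCB libraries did not overlap any other group, and the treated libraries lay above the controls. Mcm6 was the single licensing gene that passed against both treated groups, at 0.78 ± 0.19 (adjusted p = 0.0197) in DNCB minus scMSC and 0.70 ± 0.19 (adjusted p = 0.0429) in DNCB minus scivMSC. The first call was lost without DNCB 1, DNCB 3, scMSC 1 or scMSC 2, and the second without DNCB 1, 2 or 3, control 2, scivMSC 1 or scivMSC 3.

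Of the 6 subunits of the origin recognition complex, which marks the sites where the helicase is loaded, Orc1 rose in DNCB minus control (1.37 ± 0.43, adjusted p = 0.0397), with control 3 at 0.300 FPKM as its lowest library. That call was lost without any of DNCB 1, 2 and 3, control 1, control 3, scMSC 2 or scivMSC 3. The other subunits had log2 fold changes from -0.21 for Orc3 to 0.77 for Orc6 and did not pass. Orc4 passed in scMSC minus control at 0.56 ± 0.16 (adjusted p = 0.0365) and in scivMSC minus control at 0.55 ± 0.16 (adjusted p = 0.0486). These calls of Orc4 were not followed when single libraries were left out.

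The kinase that fires licensed origins was higher in all DNCB-exposed groups. Dbf4, its regulatory subunit, was at 0.573, 0.853 and 0.862 FPKM in control 1 to 3, 3.27, 3.24 and 3.33 in DNCB 1 to 3, 1.72, 2.78 and 3.05 in scMSC 1 to 3 and 1.80, 2.71 and 2.21 in scivMSC 1 to 3. All DNCB libraries lay above all others, and all treated libraries above all controls. Dbf4 did not pass in DNCB minus scMSC (adjusted p = 0.42) or in DNCB minus scivMSC (adjusted p = 0.213). Dbf4 rose by 1.92 ± 0.25 (adjusted p = 0.000895) in DNCB minus control, 1.57 ± 0.25 (adjusted p = 0.00257) in scMSC minus control and 1.37 ± 0.25 (adjusted p = 0.0076) in scivMSC minus control, and these 3 calls were kept when any single library was left out. Cdc7, the catalytic subunit, rose by 0.98 ± 0.23 (adjusted p = 0.00997), 0.73 ± 0.23 (adjusted p = 0.0478) and 1.17 ± 0.23 (adjusted p = 0.00979) in the same order. The call of Cdc7 in scMSC minus control was lost without any single library other than scMSC 2, while its calls in the other comparisons were kept without any single library.

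For the loading factor Cdc6 the DNCB libraries at 1.92, 1.67 and 1.43 FPKM lay within the range of the treated ones, at 1.98, 1.34 and 2.35 in scMSC and 1.99, 1.65 and 2.26 in scivMSC. Its adjusted p was 0.065 in DNCB minus control, and it passed in scMSC minus control (1.01 ± 0.29, adjusted p = 0.0374) and in scivMSC minus control (1.07 ± 0.29, adjusted p = 0.0373). Each of those calls was lost without any of several single libraries, among them DNCB 1, control 1 and control 3. Pcna, the sliding clamp of the replication fork, was at 23.2, 28.6 and 23.8 FPKM in control and 46.4, 46.6 and 53.7 in DNCB, a log2 fold change of 0.77 ± 0.17 (adjusted p = 0.00868). The helicase partner Cdc45 passed at 0.88 ± 0.23 (adjusted p = 0.0184), a call lost without DNCB 3, control 1 or control 3.

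As the median over the 17 licensing genes of log2(FPKM + 0.1) minus its control mean, the DNCB libraries stood at 1.17, 0.94 and 1.15. The treated libraries ranged more widely, with scMSC 1 and 2 at 0.50 and 0.43, scMSC 3 at 1.18, and scivMSC 1 to 3 at 0.46, 0.96 and 0.82. Thus scMSC 3 and scivMSC 2 reached the DNCB range while the other treated libraries lay below it, and the median of all tested genes on this scale was 0.18 to 0.21 in DNCB and 0.06 to 0.25 in the treated libraries.

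**Figure D2:**
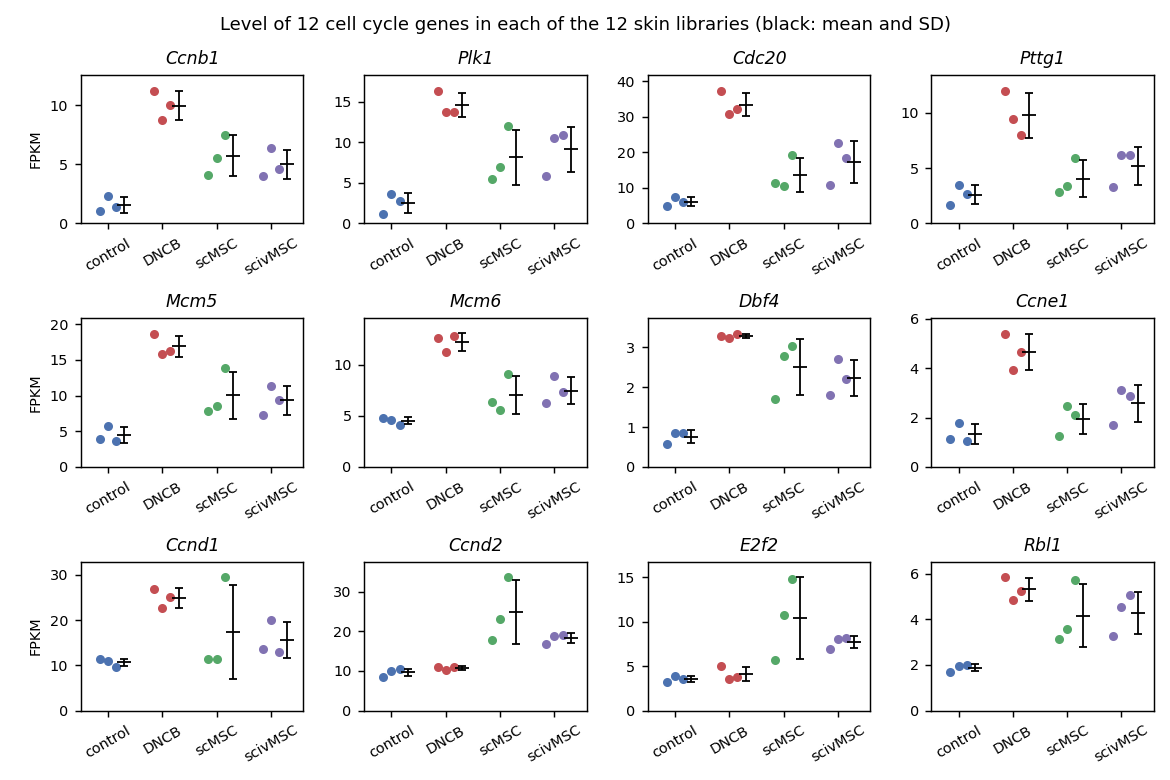
Level in FPKM of 12 cell cycle genes (panels) in each library of the 4 groups (coloured points), with the mean and SD of 3 libraries in black. The DNCB points lie above all others for Ccnb1, Plk1, Cdc20, Pttg1, Mcm5, Mcm6, Dbf4 and Ccne1, whereas the treated points lie above DNCB and control for Ccnd2 and E2f2. Of the genes with DNCB above all others, only Mcm6 passed edgeR's test in DNCB minus both treated groups.

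Among genes of G2 and mitosis, Cdk1, Ccna2, Ccnb1 and Ccnb2 rose in DNCB minus control, as did 5 of the 7 spindle checkpoint genes, while the kinases Wee1 and Pkmyt1 did not pass. Ccnb1, cyclin B1 (ENSMUSG00000041431, GRCm38 chr13:100778650-100786570), was at 1.03, 2.33 and 1.39 FPKM in control 1 to 3, 11.2, 8.73 and 9.98 in DNCB 1 to 3, 4.14, 5.57 and 7.52 in scMSC 1 to 3 and 4.03, 6.38 and 4.58 in scivMSC 1 to 3. DNCB did not overlap any other group, and every treated library lay above every control library. Ccnb1 had the largest log2 fold change of all cell cycle genes in DNCB minus control, 2.46 ± 0.33 (adjusted p = 0.000951), and it was 1.69 ± 0.32 (adjusted p = 0.00553) in scMSC minus control and 1.47 ± 0.32 (adjusted p = 0.0151) in scivMSC minus control. The scivMSC call was lost without control 1 or scivMSC 2.

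Plk1, a kinase that drives mitotic entry and spindle assembly, was at 1.19, 3.63 and 2.76 FPKM in control 1 to 3, 16.3, 13.8 and 13.7 in DNCB 1 to 3, 5.46, 7.01 and 12 in scMSC 1 to 3 and 5.90, 10.6 and 10.9 in scivMSC 1 to 3. Again DNCB lay above all others, with scMSC 3 closest to it at 12 FPKM. Plk1 did not pass in DNCB minus scMSC (adjusted p = 0.241) or in DNCB minus scivMSC (adjusted p = 0.378). Its log2 fold change was 2.34 ± 0.43 (adjusted p = 0.00311) in DNCB minus control. The treated groups also passed against control, at 1.53 (adjusted p = 0.0274) for scMSC and 1.68 (adjusted p = 0.024) for scivMSC. Both of these were lost without control 1, the lowest library, or control 3, the first also without scMSC 2 or scMSC 3 and the second without scivMSC 2 or scivMSC 3.

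All 4 of Cdk1, Ccna2, Ccnb1 and Ccnb2 rose in DNCB minus control, by 1.77 to 2.46. In scMSC minus control 3 of the 4 passed, with Cdk1 at an adjusted p of 0.057, and in scivMSC minus control all 4 passed. The calls of Ccna2 and Ccnb2 in scMSC minus control and of Cdk1, Ccna2 and Ccnb2 in scivMSC minus control were each lost without control 1, control 3 or one of several other libraries. None of the 4 passed in DNCB minus either treated group, although their log2 fold changes were all positive, 0.62 to 0.85 against scMSC and 0.63 to 0.99 against scivMSC.

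Of the 7 spindle checkpoint genes, which hold anaphase until chromosomes are attached, 5 rose in DNCB minus control: Bub1 by 2.24, Bub1b by 2.26, Mad2l1 by 1.92, Ttk by 1.49 and Mad1l1 by 0.93. Bub3 and Mad2l2 had values of 0.31 and -0.58 and did not pass. Bub1, Bub1b, Mad2l1 and Ttk passed in both treated groups minus control. The calls of Bub1 and Mad2l1 were kept in both without any single library, whereas that of Bub1b in scivMSC minus control was lost without control 1 or scivMSC 2 and that of Ttk without control 1. Ttk in scMSC minus control was lost without DNCB 3, any control library, scMSC 2 or scMSC 3. Bub1b was at 4.73, 5.16 and 9.997 FPKM in scMSC and 10.5, 8.53 and 9.70 in DNCB, so these groups overlapped only through scMSC 3.

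Cdc25c and Wee1, which set the phosphorylation of Cdk1, did not pass in DNCB minus control. Cdc25c, a phosphatase that activates Cdk1, was at 0.556, 0.811 and 0.308 FPKM in control and 2.03, 1.17 and 1.48 in DNCB, with a log2 fold change of 1.27 ± 0.54 (adjusted p = 0.109). Wee1, the kinase that holds Cdk1 inactive, had 0.10 ± 0.34 (adjusted p = 0.867) in DNCB minus control.

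Of the genes of the exit from mitosis, Cdc20 and Pttg1 were higher in DNCB than in scMSC, while Espl1 did not pass. Cdc20, the activator of the anaphase-promoting complex, was at 4.94, 7.50 and 6.0 FPKM in control 1 to 3, 37.3, 30.9 and 32.2 in DNCB 1 to 3, 11.3, 10.5 and 19.1 in scMSC 1 to 3 and 10.9, 22.6 and 18.3 in scivMSC 1 to 3. The lowest DNCB library, at 30.9 FPKM, was above the highest treated one, scivMSC 2 at 22.6. Cdc20 differed by 1.27 ± 0.29 (adjusted p = 0.0172) in DNCB minus scMSC, and in DNCB minus scivMSC its adjusted p was 0.0753. Its exons overlap those of Elovl1 on the other strand, and the strand setting of the counting is not given in the sources used here. The scMSC call was lost without DNCB 1, scMSC 1 or scMSC 2.

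Pttg1, securin, the protein whose destruction releases separase, was at 1.68, 3.45 and 2.67 FPKM in control 1 to 3, 12, 9.39 and 7.97 in DNCB 1 to 3, 2.85, 3.35 and 5.91 in scMSC 1 to 3 and 3.24, 6.13 and 6.20 in scivMSC 1 to 3. DNCB lay above all treated libraries, while the treated ones overlapped control. Pttg1 did not pass in DNCB minus scivMSC (adjusted p = 0.172). It rose by 1.71 ± 0.37 (adjusted p = 0.00747) in DNCB minus control and passed at 1.25 ± 0.37 (adjusted p = 0.0498) in DNCB minus scMSC, a call lost without any of DNCB 1, 2 and 3, control 3, scMSC 1, scMSC 2 or scivMSC 2. Espl1, separase itself, rose in all 3 DNCB-exposed groups minus control, by 1.11 in DNCB, 1.10 in scMSC and 1.07 in scivMSC, each call being lost without control 1 or one of several other libraries. Cdc25b, a phosphatase related to Cdc25c, completes the 3 mitotic genes higher in DNCB than in scMSC, at 0.63 ± 0.14 (adjusted p = 0.0163), and was named to complete that count.

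Subunits of the anaphase-promoting complex moved in both directions. Of its 12 subunits, 3 rose in DNCB minus control, Cdc27 by 0.90, Anapc1 by 0.60 and Cdc23 by 0.37, and 2 fell. Cdc23 shares exon sequence with Kif20a on the other strand, and Kif20a rose by 2.13 in DNCB minus control. The part of Kif20a reads in the Cdc23 values was not tested. Anapc13, at 17.3, 17.9 and 14.5 FPKM in control and 11.9, 10.7 and 10.2 in DNCB, had a log2 fold change of -0.79 ± 0.20 (adjusted p = 0.0149), lost without DNCB 3, and shares exon sequence with Cep63 on the other strand. Anapc5 had -0.62 ± 0.14 (adjusted p = 0.00883), which was kept without any single library. The 7 other subunits did not pass. Of 5 tested cohesin genes, which hold sister chromatids together, 4 rose, with values up to 0.56 for Stag1.

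Cdc14a, a phosphatase of late mitosis, was highest in scMSC skin. Its levels were 1.06, 0.376 and 0.951 FPKM in control 1 to 3, 1.01, 0.687 and 1.13 in DNCB 1 to 3, 2.10, 3.49 and 3.57 in scMSC 1 to 3 and 0.595, 1.47 and 1.80 in scivMSC 1 to 3. All scMSC libraries lay above all DNCB and control libraries, and scivMSC 1 lay below them all except control 2. Its log2 fold change was -1.73 ± 0.47 (adjusted p = 0.0334) in DNCB minus scMSC, lost without any of DNCB 1, 2 and 3, scMSC 2 or scMSC 3, and -0.48 ± 0.45 (adjusted p = 0.598) in DNCB minus scivMSC.

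**Figure D3:**
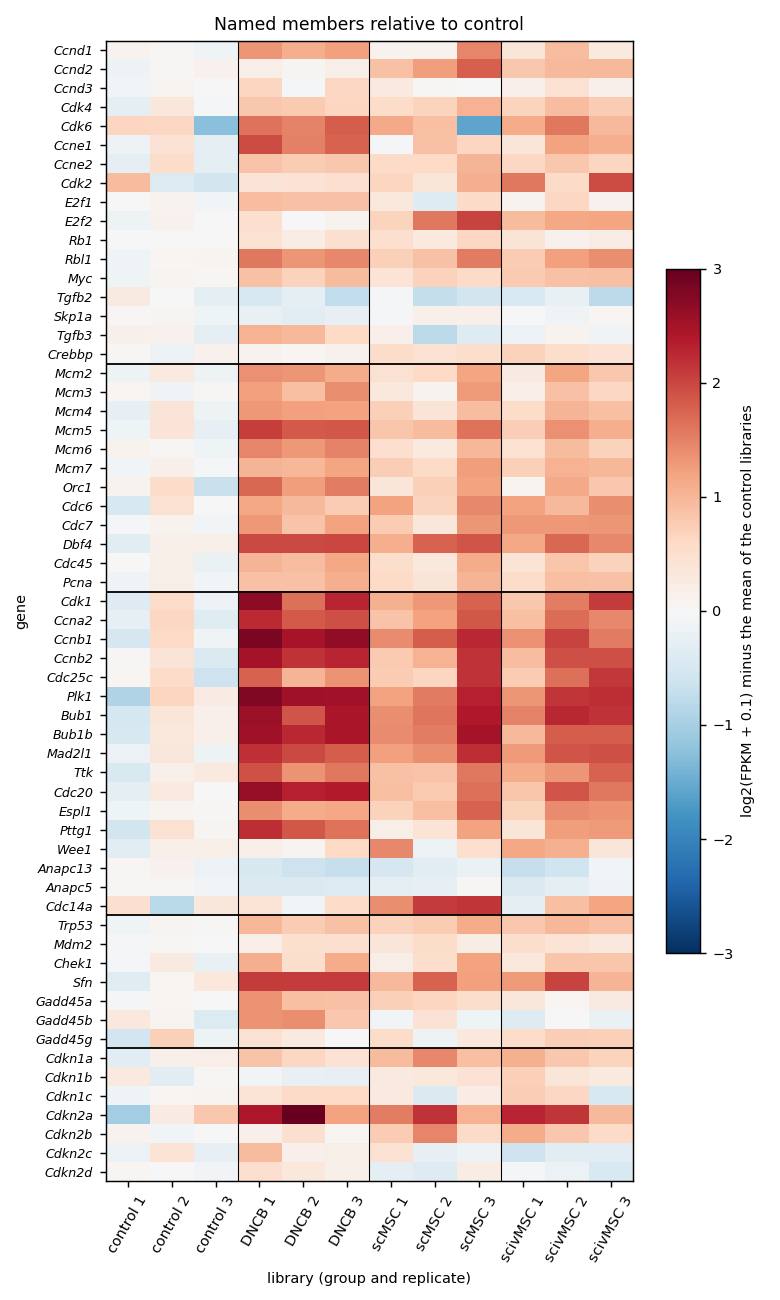
Log2(FPKM + 0.1) of the named cell cycle genes (rows, divided by role) in each of the 12 libraries (columns), minus the mean of the 3 control libraries of the same gene. Red is above control and blue below; DNCB 1 to 3 are red in most licensing and mitotic rows, and scMSC 3 is redder than scMSC 1 and 2 in most of them.

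Promoters of these genes are textbook targets of E2F and of the CCAAT-binding factor NF-Y, so the 250 bases before each RefSeq start were searched for a few fixed letters on both strands, and 96 of the 121 genes were found in the table of mouse promoters. The E2F letters TTTCGCGC, TTTGGCGC, TTTCCCGC or TTTGCCGC were present for 6 of 16 licensing genes (37.5%), 6 of 25 genes of G1/S control (24%) and 2 of 35 genes of G2 and mitosis (5.71%), against 2.16% of all 27025 genes in the table. CCAAT was present for 11 of 16 licensing genes (68.8%) and 24 of 35 genes of G2 and mitosis (68.6%), against 37.5% of all. The CHR letters TTTGAA or TTTAAA were present for 10 of the 35 genes of G2 and mitosis (28.6%), against 28.1% of all genes. At least 2 copies of CCAAT were present for 7 of the 17 genes of G2 and mitosis that rose in DNCB minus control (41.2%), for 2 of the 15 that did not rise (13.3%) and for 11.5% of all genes, shares on which no test was made. CHR letters were present for 6 of those 17 (35.3%) and 4 of those 15 (26.7%). CHR letters together with CCAAT were present for 6 (35.3%) and 1 (6.67%), against 10.1% of all genes. These shares were not tested either. These are matches of letters and not measured binding. The 120 bases just before the start are given below, 5′ to 3′ on the coding strand of build GRCm38.p6 as RefSeq gives it, for 3 mitotic genes and then 2 genes with E2F letters, with capitals marking CCAAT, CHR and E2F letters on either strand (ATTGG is CCAAT read on the other strand). They were chosen after their matches were seen, from genes that rose in DNCB minus control and whose window holds no exon of the same gene, to show the 3 kinds of match.
Plk1, chr7:122159315-122159434, plus strand, overlapping an exon of Gm15489: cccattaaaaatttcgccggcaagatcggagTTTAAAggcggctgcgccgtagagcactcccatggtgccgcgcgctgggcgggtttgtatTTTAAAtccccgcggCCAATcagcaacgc
Ccnb2, chr9:70421555-70421674, minus strand: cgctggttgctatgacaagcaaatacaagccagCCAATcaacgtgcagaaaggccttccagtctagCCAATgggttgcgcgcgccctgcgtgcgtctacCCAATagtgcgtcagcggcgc
Bub1b, chr2:118598091-118598210, plus strand: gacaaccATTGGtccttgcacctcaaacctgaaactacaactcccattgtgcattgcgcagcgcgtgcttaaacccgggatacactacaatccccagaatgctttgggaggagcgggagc
Mcm6, chr1:128359706-128359825, minus strand: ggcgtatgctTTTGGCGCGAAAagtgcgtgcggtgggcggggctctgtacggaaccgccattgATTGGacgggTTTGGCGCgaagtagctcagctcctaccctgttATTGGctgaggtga
Rbl1, chr2:157204535-157204654, minus strand: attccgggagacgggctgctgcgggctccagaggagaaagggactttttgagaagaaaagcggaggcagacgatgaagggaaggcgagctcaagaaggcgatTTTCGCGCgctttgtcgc
Plk1 holds 2 copies of TTTAAA upstream of 1 CCAAT, and Ccnb2 holds 3 CCAAT in the same direction. Mcm6 holds overlapping E2F letters on both strands and a second E2F match nearer the start, and Rbl1 holds TTTCGCGC 18 bases before its start.

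At the G1/S control point, cyclin D1 rose in DNCB skin and cyclin D2 in treated skin. Ccnd1, cyclin D1, the partner of CDK4 and CDK6 that growth signals induce (GRCm38 chr7:144929931-144939925), was at 11.4, 10.9 and 9.70 FPKM in control 1 to 3, 26.9, 22.6 and 25.1 in DNCB 1 to 3, 11.4, 11.4 and 29.5 in scMSC 1 to 3 and 13.7, 20.1 and 12.9 in scivMSC 1 to 3. The DNCB libraries lay above all others except scMSC 3, which was the highest of all. Ccnd1 rose by 1.04 ± 0.32 (adjusted p = 0.0378) in DNCB minus control, a call lost without any one of the 6 libraries compared, and its adjusted p was 0.383 in DNCB minus scMSC and 0.246 in DNCB minus scivMSC.

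Ccnd2, cyclin D2 (ENSMUSG00000000184, GRCm38 chr6:127125162-127152193), was at 8.57, 9.89 and 10.5 FPKM in control 1 to 3, 11.1, 10.2 and 10.9 in DNCB 1 to 3, 17.7, 23.2 and 33.7 in scMSC 1 to 3 and 16.9, 18.9 and 19 in scivMSC 1 to 3. All treated libraries lay above all DNCB and control libraries, and DNCB overlapped control. Its log2 fold change was -0.03 ± 0.20 (adjusted p = 0.944) in DNCB minus control, 1.21 ± 0.20 (adjusted p = 0.00302) in scMSC minus control, 0.75 ± 0.20 (adjusted p = 0.0318) in scivMSC minus control, -1.24 ± 0.20 (adjusted p = 0.00378) in DNCB minus scMSC and -0.78 ± 0.20 (adjusted p = 0.0377) in DNCB minus scivMSC. The scMSC calls were kept without any single library, whereas each scivMSC call was lost without any one of the libraries it compared. The markers of hair matrix, hair shaft and inner root sheath were also highest in the treated groups. Of these 15 markers 11 passed as lower in DNCB than in scMSC and 7 than in scivMSC. Of 6 sebaceous gland markers 5 and 6 passed as lower in the same comparisons, and of all tested genes 6.95% and 4.56%. The relation of these markers to Ccnd2 was not tested. Ccnd3 was at 5.22 to 8.69 FPKM in all libraries and passed in no comparison.

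On the FPKM scale the ratio of Ccnd2 to Ccnd1 was 0.754, 0.910 and 1.08 in control, 0.411, 0.452 and 0.435 in DNCB, 1.56, 2.04 and 1.14 in scMSC, and 1.23, 0.941 and 1.47 in scivMSC. DNCB lay below every other library, and scMSC lay above every control library. In a 3 against 3 comparison the exact two-sided permutation test cannot give a p below 0.10, so no test of this ratio was made.

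Cdk4 and Cdk6 encode the kinases of the D cyclins. Cdk4 was at 17.1, 26.7 and 20.1 FPKM in control and 37, 36 and 32.8 in DNCB, and it passed in scMSC minus control alone (0.59 ± 0.18, adjusted p = 0.0474), where the call was lost without any single library except scMSC 1 and control 2. In DNCB minus control its adjusted p was 0.0527. Cdk6 was at 3.80 to 4.83 FPKM in DNCB, but control 3 and scMSC 3 stood at 0.480 and 0.365 against 2.04 to 2.95 in the other libraries of their groups, and it passed in no comparison. Cdk2, the kinase of cyclin E, was at 2.02 to 12.1 FPKM, shares exon sequence with the pigment gene Pmel and passed in no comparison.

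Of the E cyclins, which activate CDK2 at the start of S phase, Ccne1 passed in DNCB minus control and Ccne2 did not, and the difference between them was not tested. Ccne1 was at 1.15, 1.78 and 1.07 FPKM in control 1 to 3, 5.37, 3.91 and 4.66 in DNCB 1 to 3, 1.27, 2.46 and 2.09 in scMSC 1 to 3 and 1.71, 3.13 and 2.88 in scivMSC 1 to 3. DNCB lay above all other libraries, and the treated libraries overlapped control. Ccne1 rose by 1.60 ± 0.35 (adjusted p = 0.00744) in DNCB minus control and was higher in DNCB than in scMSC by 1.21 ± 0.35 (adjusted p = 0.0425), a call lost without any of DNCB 1, 2 and 3, control 1, scMSC 1, scMSC 3 or scivMSC 2. In DNCB minus scivMSC Ccne1 did not pass (adjusted p = 0.172). Ccne2 was at 1.46, 2.73 and 1.50 FPKM in control and 3.38, 3.16 and 3.23 in DNCB and passed in no comparison. The ratio of Ccne1 to Ccne2 was 1.24 to 1.59 in DNCB and 0.458 to 0.989 in all other libraries.

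The factors E2f1 and E2f2 were highest in different groups. E2f1, an activator of S phase genes, was at 3.05, 3.32 and 2.88 FPKM in control 1 to 3, 5.99, 5.79 and 5.77 in DNCB 1 to 3, 3.88, 2.33 and 4.67 in scMSC 1 to 3 and 3.32, 4.80 and 3.40 in scivMSC 1 to 3. DNCB lay above all other libraries, and the treated libraries overlapped the controls. E2f1 did not pass in DNCB minus scMSC (adjusted p = 0.0777) or in DNCB minus scivMSC (adjusted p = 0.135). E2f1 rose by 0.73 ± 0.23 (adjusted p = 0.0355) in DNCB minus control, a call lost without any one of the 6 libraries compared. E2f2, a close relative (GRCm38 chr4:136172394-136196057), was at 3.19, 3.88 and 3.59 FPKM in control 1 to 3, 5.05, 3.51 and 3.81 in DNCB 1 to 3, 5.66, 10.8 and 14.8 in scMSC 1 to 3 and 6.95, 8.08 and 8.23 in scivMSC 1 to 3.

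The treated libraries of E2f2 all lay above DNCB and control. Its log2 fold change was -1.37 ± 0.30 (adjusted p = 0.0132) in DNCB minus scMSC, lost without DNCB 2 or DNCB 3, and 1.40 ± 0.30 (adjusted p = 0.00933) in scMSC minus control, kept without any single library. In DNCB minus scivMSC its adjusted p was 0.0834, and in DNCB minus control its log2 fold change was 0.03. E2f2 to E2f1 stood at a ratio of 0.606 to 0.844 in DNCB, 1.05 to 1.24 in control, 1.46 to 4.63 in scMSC and 1.68 to 2.42 in scivMSC. E2f3 also passed in scMSC minus control, at 0.99 ± 0.20 (adjusted p = 0.00656), with an adjusted p of 0.0523 in DNCB minus scMSC. E2f4 and Tfdp1, a repressive E2F and the dimer partner of E2Fs, rose in DNCB minus control by 0.54 and 1.00.

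Of the retinoblastoma family, Rbl1 (p107, itself a known E2F target) rose in every DNCB-exposed group. It was at 1.71, 1.95 and 1.99 FPKM in control 1 to 3, 5.86, 4.86 and 5.26 in DNCB 1 to 3, 3.16, 3.56 and 5.73 in scMSC 1 to 3 and 3.28, 4.52 and 5.08 in scivMSC 1 to 3. All DNCB-exposed libraries lay above all controls, and scMSC 3 and scivMSC 3 lay within the DNCB range. The log2 fold change was 1.31 ± 0.24 (adjusted p = 0.0031) in DNCB minus control, 0.98 ± 0.24 (adjusted p = 0.0168) in scMSC minus control and 1.02 ± 0.24 (adjusted p = 0.0189) in scivMSC minus control, of which the second was lost without control 1 or scMSC 3 and the third without control 1 or scivMSC 2. Rb1 and Rbl2 had 0.21 and -0.46 in DNCB minus control and did not pass.

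Myc, a growth factor-induced activator of cyclin and ribosome genes, was at 7.02, 8.15 and 8.11 FPKM in control, 14.3, 12.6 and 15.1 in DNCB, 10.4, 12.5 and 11.5 in scMSC and 13.4, 14.3 and 14.6 in scivMSC. No control library reached any other. It rose by 0.67 ± 0.13 (adjusted p = 0.00511) in DNCB minus control and 0.69 ± 0.13 (adjusted p = 0.00992) in scivMSC minus control, the latter lost without control 1, and had an adjusted p of 0.0576 in scMSC minus control. Skp2, the ubiquitin ligase subunit that targets Cdkn1b for destruction, rose in all 3 groups minus control, by 1.06 (adjusted p = 0.0378), 1.38 (adjusted p = 0.0169) and 1.12 (adjusted p = 0.0491). The calls of Skp2 were not followed when single libraries were left out. Its partner Skp1a had -0.45 ± 0.13 (adjusted p = 0.0273) in DNCB minus control, which no longer passed when libraries were scaled by their size alone or without any of DNCB 1, 2 and 3, control 1 or control 2.

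The annotation also lists growth factor ligands and transcriptional coactivators. Tgfb3, a ligand that holds epithelial cells in G1, was at 8.60, 8.51 and 6.34 FPKM in control 1 to 3, 16.1, 15.4 and 11.9 in DNCB 1 to 3, 8.58, 4.44 and 5.89 in scMSC 1 to 3 and 6.88, 8.39 and 7.17 in scivMSC 1 to 3. DNCB lay above every other library. Tgfb3 was higher in DNCB than in scMSC by 1.19 ± 0.23 (adjusted p = 0.00733), a call kept without any single library, and than in scivMSC by 0.94 ± 0.22 (adjusted p = 0.0294), lost without DNCB 1, DNCB 2, scivMSC 1 or scivMSC 3. In DNCB minus control it passed narrowly, at 0.69 ± 0.22 (adjusted p = 0.0432), and lost the call without any of DNCB 1, DNCB 2, the control libraries, scMSC 3 or the scivMSC libraries.

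Tgfb2 had the opposite direction in DNCB minus control, at -0.71 ± 0.23 (adjusted p = 0.0439), with 3.81, 3.21 and 2.59 FPKM in control and 2.24, 2.58 and 1.86 in DNCB, and this call was lost when libraries were scaled by their size alone and without any of DNCB 1, 2 and 3, control 1, control 2, scMSC 3 or scivMSC 1. None of the 3 SMAD genes that carry the signal of these ligands passed in any comparison. Crebbp, a coactivator with histone acetyltransferase activity, was at 4.12, 3.99 and 4.13 FPKM in DNCB, 5.60, 5.24 and 5.49 in scMSC and 6.22, 5.53 and 5.16 in scivMSC. DNCB lay below all treated libraries, with a log2 fold change of -0.44 ± 0.10 (adjusted p = 0.0132) in DNCB minus scMSC and -0.47 ± 0.10 (adjusted p = 0.0162) in DNCB minus scivMSC. The first call was lost without DNCB 2 or scMSC 2, and the second without DNCB 1, 2 or 3 or scivMSC 1.

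Of the 7 CDK inhibitors, 1 rose in DNCB minus control, 2 in scMSC minus control and 0 in scivMSC minus control, where 12.9%, 10.4% and 7.11% of all tested genes rose. In DNCB minus each treated group 1 was lower, where 6.95% of all tested genes were lower against scMSC and 4.56% against scivMSC. With 7 genes these counts were not told apart from those shares. In scivMSC minus control edgeR gave 3 higher and 2 lower at an unadjusted p under 0.05, and DESeq2 and limma each called 2 higher after adjustment. Cdkn1a, the p53 target p21, was at 31, 43.6 and 45.1 FPKM in control 1 to 3, 71.4, 60.7 and 53.1 in DNCB 1 to 3, 76, 108 and 73.2 in scMSC 1 to 3 and 83.1, 69.2 and 62.1 in scivMSC 1 to 3. All DNCB-exposed libraries lay above all controls, and scMSC 2 was the highest. It passed in scMSC minus control at 0.96 ± 0.21 (adjusted p = 0.0112), lost without control 1 or scMSC 2, and its adjusted p was 0.146 in DNCB minus control and 0.0622 in scivMSC minus control.

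Cdkn1b, p27, which restrains cyclin E with CDK2, was at 18.7, 12.2 and 15.6 FPKM in control 1 to 3, 14.3, 13 and 12.9 in DNCB 1 to 3, 18.6, 19.2 and 20.6 in scMSC 1 to 3 and 25.1, 19.8 and 18.8 in scivMSC 1 to 3. The DNCB libraries lay below every treated library and within the control range. Its log2 fold change was -0.57 ± 0.16 (adjusted p = 0.0376) in DNCB minus scMSC and -0.67 ± 0.16 (adjusted p = 0.0273) in DNCB minus scivMSC, and it did not pass against control in any group. The scMSC call was lost without DNCB 1, 2 or 3, control 3, scMSC 2 or scMSC 3, and with libraries scaled by their size alone. The scivMSC call was lost without DNCB 1, 2 or 3, scivMSC 1 or scivMSC 3.

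Cdkn2a, whose counts cover both p16 and p19ARF transcripts, was low throughout. It was at 0.131, 0.463 and 0.735 FPKM in control 1 to 3, 2.48, 4.08 and 1.01 in DNCB 1 to 3, 1.28, 2.03 and 0.879 in scMSC 1 to 3 and 2.24, 2.0 and 0.843 in scivMSC 1 to 3. All DNCB-exposed libraries lay above all controls, but the DNCB libraries ranged from 1.01 to 4.08 FPKM. It passed in DNCB minus control at 2.31 ± 0.68 (adjusted p = 0.0287), lost without DNCB 1, DNCB 2, control 1 or control 2. Neighbouring Cdkn2b, p15, was at 7.65, 6.62 and 6.95 FPKM in control 1 to 3, 7.81, 9.97 and 7.35 in DNCB 1 to 3, 12.1, 19.6 and 10.5 in scMSC 1 to 3 and 15.4, 12.4 and 10.5 in scivMSC 1 to 3.

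For Cdkn2b all treated libraries lay above all DNCB and control libraries. It passed in scMSC minus control at 0.85 ± 0.26 (adjusted p = 0.0435), a call lost without any single library except scMSC 1 and scMSC 3, and its adjusted p was 0.0728 in DNCB minus scMSC and 0.117 in scivMSC minus control. By edgeR Cdkn1c, Cdkn2c and Cdkn2d passed in no comparison. In DNCB minus scivMSC Cdkn2c was at 0.90 ± 0.28 (adjusted p = 0.0812) and Cdkn2d at 0.55 ± 0.18 (adjusted p = 0.0915), and these were the 2 inhibitors that DESeq2 called higher there. Their log2 fold changes in DNCB minus control were 0.34, 0.26 and 0.14. The sign of Cdkn2c rested on DNCB 1, since the DNCB libraries stood at 10.5, 6.0 and 6.13 FPKM, and without that library the value was -0.05. The near-zero value of Cdkn2b in DNCB minus control, 0.06, turned to -0.09 without DNCB 2.

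**Figure D4:**
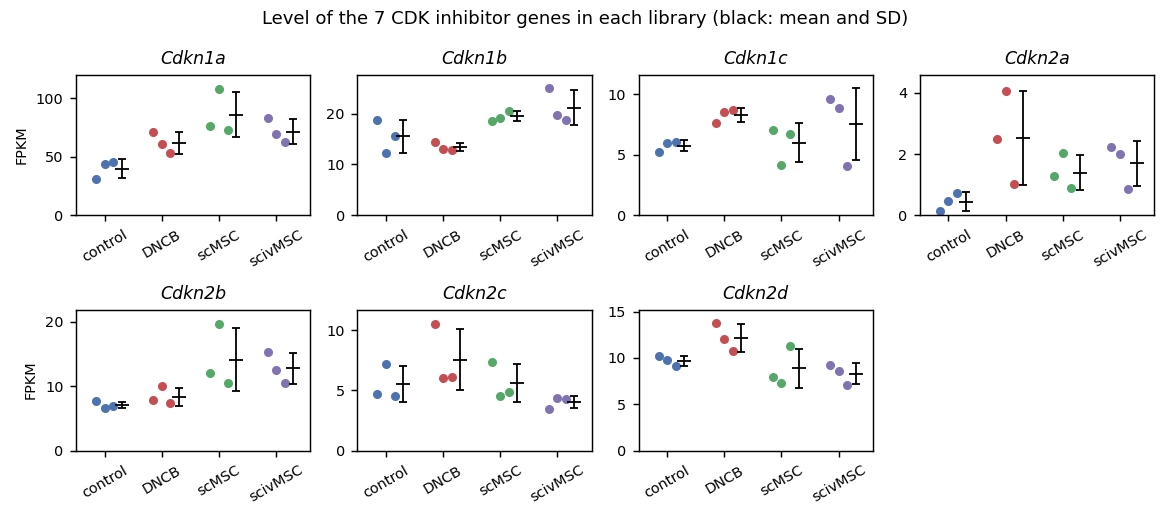
Level in FPKM of the 7 CDK inhibitor genes (panels) in each library of the 4 groups (coloured points), with the mean and SD of 3 libraries in black. Treated libraries are highest for Cdkn2b, DNCB is lowest against the treated groups for Cdkn1b, and single libraries stand apart for Cdkn2a and Cdkn2c.

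Of the 17 checkpoint and 14-3-3 genes 9 rose in DNCB minus control, 4 in scMSC minus control and 4 in scivMSC minus control, with medians of 0.69, 0.31 and 0.25. Among all tested genes 12.9%, 10.4% and 7.11% rose in the same order, with medians of 0.02, 0.00 and 0.04. Trp53, which encodes p53, was at 8.60, 9.94 and 9.61 FPKM in control, 18.8, 15.9 and 17.4 in DNCB, 15.2, 16.1 and 20.3 in scMSC and 16.5, 18.6 and 17.3 in scivMSC. Every DNCB-exposed library lay above every control, and the 3 exposed groups overlapped. Trp53 rose by 0.70 ± 0.13 (adjusted p = 0.0035), 0.71 ± 0.13 (adjusted p = 0.00485) and 0.72 ± 0.13 (adjusted p = 0.00761) in DNCB, scMSC and scivMSC minus control, and these calls were kept without any single library. The differences between DNCB and the treated groups were -0.01 and -0.02. Mdm2, the ligase that p53 induces and that degrades it, passed in no comparison.

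Sfn, 14-3-3 sigma, an epithelial protein that keeps cyclin B with Cdk1 in the cytoplasm, had the highest mean level of all cell cycle genes in every group. Its levels were 190.3, 257 and 304 FPKM in control 1 to 3, 1057, 1047 and 1049.6 in DNCB 1 to 3, 484, 836 and 581 in scMSC 1 to 3 and 595, 998 and 497 in scivMSC 1 to 3. The DNCB libraries were close together and above all others, and all treated libraries were above control. Sfn did not pass in DNCB minus scMSC (adjusted p = 0.15) or in DNCB minus scivMSC (adjusted p = 0.242). Sfn rose by 1.89 ± 0.29 (adjusted p = 0.00151) in DNCB minus control, 1.20 ± 0.29 (adjusted p = 0.0157) in scMSC minus control and 1.29 ± 0.29 (adjusted p = 0.016) in scivMSC minus control. The scMSC call was lost without control 1, control 2 or scMSC 2, and the scivMSC call without control 1 or scivMSC 2. Of the 7 genes of the 14-3-3 family, 4 rose in DNCB minus control, where 12.9% of all tested genes rose. In scMSC and scivMSC minus control 1 rose, Sfn, where 10.4% and 7.11% of all tested genes rose. With 7 genes these counts were not tested against those shares. Ywhah also passed in DNCB minus scMSC (0.42 ± 0.11, adjusted p = 0.0322) and was named to complete that count.

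Gadd45b and Gadd45a, which stress induces, were the 2 checkpoint genes that passed in DNCB minus scivMSC. Gadd45b was at 29.3, 24.8 and 17.7 FPKM in control 1 to 3, 59.2, 61.4 and 41 in DNCB 1 to 3, 22, 31.7 and 21.5 in scMSC 1 to 3 and 17.9, 23.1 and 20.2 in scivMSC 1 to 3. DNCB lay above all other libraries, and the treated libraries overlapped control. It was higher in DNCB than in scMSC by 1.07 ± 0.26 (adjusted p = 0.0205) and than in scivMSC by 1.39 ± 0.26 (adjusted p = 0.0115). The scMSC call was lost without DNCB 1, DNCB 2, scMSC 1 or scMSC 3, and the scivMSC call without scivMSC 1.

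Gadd45a was at 5.99, 6.50 and 6.10 FPKM in control 1 to 3, 16, 11.7 and 11.4 in DNCB 1 to 3, 10.3, 9.75 and 9.0 in scMSC 1 to 3 and 7.91, 6.48 and 7.47 in scivMSC 1 to 3. Its scMSC libraries lay between control and DNCB, and scivMSC overlapped control. It rose by 0.88 ± 0.17 (adjusted p = 0.00375) in DNCB minus control and was higher in DNCB than in scivMSC by 0.82 ± 0.17 (adjusted p = 0.0162), lost without DNCB 1 or scivMSC 1, with an adjusted p of 0.153 in DNCB minus scMSC. Gadd45g passed in no comparison. Of the kinases that signal damage, Chek2 rose by 1.27 and Atr by 0.69 in DNCB minus control and also passed in both treated groups minus control, whereas Chek1 had an adjusted p of 0.0981.

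Between the routes of MSC delivery, 0 cell cycle genes passed in scMSC minus scivMSC, where 0.00457% of all tested genes did. By edgeR 5 of the 118 genes had an unadjusted p under 0.05, and DESeq2, limma and the other alternatives also gave 0 calls for these genes. The median log2 fold change of the 118 genes was 0.02, and for the 4 genes Cdk1, Ccna2, Ccnb1 and Ccnb2 the values ran from -0.20 to 0.22. With 7 genes wholly above and 1 wholly below on the FPKM scale, where 5.67% and 5.16% of all tested genes did so, the groups overlapped in nearly all members. The spread within scMSC was wide for several of them, as for Ccnd1 at 11.4, 11.4 and 29.5 FPKM, and this limits the size of difference that could be detected.

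Genes of proliferation outside the pathway annotation were examined as well. Mki67, which encodes Ki67, the usual tissue marker of cycling cells, was at 2.99, 5.35 and 4.0 FPKM in control 1 to 3, 23.5, 16.1 and 19.6 in DNCB 1 to 3, 10.9, 13.5 and 23.2 in scMSC 1 to 3 and 10.6, 16 and 16.2 in scivMSC 1 to 3. DNCB and the treated libraries overlapped, and all of them lay above control. Mki67 rose by 2.07 ± 0.32 (adjusted p = 0.00154), 1.78 ± 0.32 (adjusted p = 0.0043) and 1.62 ± 0.32 (adjusted p = 0.00997) in DNCB, scMSC and scivMSC minus control. Its differences of 0.29 in DNCB minus scMSC and 0.46 in DNCB minus scivMSC did not pass (adjusted p = 0.635 and 0.436). Top2a, the topoisomerase that untangles sister chromatids, rose by 1.91, 1.55 and 1.50 against control.

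Of 26 S phase genes outside the annotation, 20 rose in DNCB minus control, while 10 did so in scMSC minus control and 9 in scivMSC minus control. Of 27 genes of G2 and mitosis, 26 rose in DNCB, 20 in scMSC and 22 in scivMSC. Other genes of both lists did not pass in these 3 comparisons. Against control, 12.9% of all tested genes passed as higher for DNCB, 10.4% for scMSC and 7.11% for scivMSC. Against the treated groups, Cdt1, a licensing factor, was the single S phase gene that passed by edgeR, at 1.14 ± 0.28 (adjusted p = 0.0221) in DNCB minus scMSC and 1.28 ± 0.28 (adjusted p = 0.0217) in DNCB minus scivMSC, and Cdca3 was the single mitotic gene, at 1.00 ± 0.23 (adjusted p = 0.0186) in DNCB minus scMSC. Of all tested genes 5.77% were higher by edgeR in DNCB minus scMSC and 3.6% in DNCB minus scivMSC, so these counts were near or below those shares. DESeq2 called 8 genes of both lists in DNCB minus scMSC and 6 in DNCB minus scivMSC. The 30 calls of both lists in scMSC minus control became 13, 16, 14 and 12 without control 1, control 3, scMSC 2 and scMSC 3. The 31 in scivMSC minus control became 10, 17, 10 and 18 without control 1, control 3, scivMSC 2 and scivMSC 3.

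The 13 p53 targets were mixed, with 2 higher and 3 lower in DNCB minus control, 3 and 2 in scMSC minus control, and 1 and 2 in scivMSC minus control. These were 15.4% and 23.1%, 23.1% and 15.4%, and 7.69% and 15.4% of the 13 genes. The shares of all tested genes were 12.9% and 12.4%, 10.4% and 8.12%, and 7.11% and 6.13%. With only 13 genes the difference between these shares was not tested. Ccng1, cyclin G1, was lower in all 3 groups, at -1.60 ± 0.21 (adjusted p = 0.000884), -1.63 ± 0.21 (adjusted p = 0.00124) and -1.64 ± 0.21 (adjusted p = 0.00388). Trp53inp1 and Sesn1 were the 2 targets that passed against the treated groups. Both were lower in DNCB, with log2 fold changes of -1.42 for Trp53inp1 in DNCB minus scMSC and -1.34 in DNCB minus scivMSC, and of -0.71 and -0.99 for Sesn1. They were 15.4% of the 13 genes in each comparison, where 6.95% and 4.56% of all tested genes were lower. This difference was not tested.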

How the data were processed

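Dorsal skin RNA was sequenced in 12 libraries, 3 for each of the control, DNCB, scMSC and scivMSC groups, which were assigned from the sample labels. Per the file headers the deposited table holds, for each gene and library, an estimated count and an FPKM value made by the authors. The submitters' processing notes name HISAT2 2.0, StringTie 1.3.0, Bowtie 0.12.2 and the build mm8 without their roles; the positions of the 121 cell cycle genes in the table overlap those of the same genes on GRCm38 (121 of 121, GENCODE M21). The strand setting of the counting is not given in the sources used here, and 43 of the genes share exon sequence with another gene. The table has no columns of further samples.

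Estimated counts are whole numbers in the file and were tested with edgeR 4.0.16 (TMM scaling, quasi-likelihood F-test, R 4.3.3), in one model with 4 group means over 12 libraries. A mean FPKM of 0.1 or more was required (21890 of 36400 genes), with Benjamini-Hochberg adjustment over all of them and a threshold of 0.05. Of small estimated counts, 38.9% to 41.2% per library were multiples of 4, so counts divided by 4 were an alternative. How many estimated counts correspond to 1 fragment was not measured. Standard errors are the absolute log2 fold change divided by the square root of F. FPKM means and library medians use log2(FPKM + 0.1) where stated. The other alternatives were RLE scaling, library size alone, DESeq2 1.42.0, limma 3.58.1 on log2(FPKM + 0.01, 0.1 or 1), no filter, a mean of at least 1 FPKM, the 6 compared libraries alone, a replicate block, a 2-fold minimum, and leaving out each library in turn. Runs of these alternatives for the treated groups against control by gene, and for the outside lists, were added after seeing the data. The scripts were tested on simulated data. Tables were handled in Python 3.11.15 with pandas 2.3.3, and figures drawn with matplotlib 3.10.9.

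The genes, their roles and the lists were chosen with earlier results of these data known. Genes are named by role from a fixed list, and as the 5 passing genes with the largest change in each direction of each DNCB comparison, at a mean of at least 1 FPKM in one group; Mki67 and Top2a were added as markers of cycling cells. Other genes named complete a family or a count and were chosen after their values were seen. Their calls, and those of Mki67 and Top2a, were not followed by gene under the alternatives. One item of the pathway is not reported here.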

Additional observations from a re-analysis of the deposited data

How the results depend on the processing

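In scMSC minus scivMSC the count of cell cycle genes was 0 under every alternative run. The other counts, 56 (DNCB minus control), 13 (DNCB minus scMSC), 7 (DNCB minus scivMSC), 39 (scMSC minus control) and 29 (scivMSC minus control), moved as follows. Leaving out each library in turn gave 37 to 56, 4 to 15, 0 to 9, 12 to 41 and 7 to 31 in that order. A 2-fold minimum left 26, 8, 1, 17 and 17 genes. The 6 compared libraries alone gave 12 in scMSC minus control and 10 in scivMSC minus control. DESeq2 gave 16 in DNCB minus scivMSC and limma with a pseudocount of 1 gave 11. In scivMSC minus control library size alone gave 50, and limma gave 51, 50 and 48 with pseudocounts of 0.01, 0.1 and 1. Without a filter on low values 8 genes passed in DNCB minus scMSC and 23 in scMSC minus control. The cause of these changes was not tested, except that leaving out libraries or a filter changes the number of samples or genes tested by construction.

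For the S phase and mitosis lists outside the annotation, with 2 genes in DNCB minus scMSC and 1 in DNCB minus scivMSC, the 6 libraries alone gave 5 in DNCB minus scMSC, 9 in scMSC minus control and 9 in scivMSC minus control, DESeq2 gave 8 and 6 in the first pair, limma with a pseudocount of 1 gave 4 in DNCB minus scMSC, and the 2-fold minimum left 1 there. Leaving out each library gave 0 to 8 in DNCB minus scMSC, 0 to 3 in DNCB minus scivMSC, 12 to 32 in scMSC minus control and 10 to 33 in scivMSC minus control.

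Of 104 calls on named genes, 40 were kept under every alternative. The others were lost under at least one: 34 with the 6 libraries alone, 24 without a filter, 8 with RLE scaling, 3 with library size alone, 3 to 4 with limma, 0 with DESeq2, and 8 to 45 without a single library, the most without control 1. No call changed direction. Of values that had not passed, Cdkn2c in DNCB minus control ranged from -0.050 (without DNCB 1) to 0.49 (without control 2), and Cdkn2b from -0.093 (without DNCB 2) to 0.15 (without DNCB 3), with -0.0078 without control 2 and -0.026 without control 3.

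The replicate numbers of the labels were taken not to pair the libraries, since 1 of 18 same-numbered pairs correlated above 0.1 in their deviations from the group means (range -0.185 to 0.133) and 3 of 12 libraries were closest to their own number. With the replicate block the counts were 50, 12, 6, 28 and 21 in the order given first, and 18 of the 104 calls on named genes were lost.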

Other observations

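The values of 2 cell cycle genes with a wide spread among treated libraries are given here. Neither gene passed edgeR's test in any comparison, and the spread itself was not tested. Gsk3b, a kinase that marks cyclin D1 for destruction, was at 8.33, 7.07 and 9.32 FPKM in control 1 to 3, 8.50, 6.62 and 8.23 in DNCB 1 to 3, 10.04, 3.79 and 3.31 in scMSC 1 to 3 and 2.55, 9.09 and 1.76 in scivMSC 1 to 3. The lowest levels were those of scMSC 2, scMSC 3, scivMSC 1 and scivMSC 3, and the other treated libraries lay near control.

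Cdk2 was at 5.97, 2.26 and 2.02 FPKM in control 1 to 3, 3.98, 4.09 and 4.30 in DNCB 1 to 3, 4.78, 3.93 and 6.55 in scMSC 1 to 3 and 9.19, 4.54 and 12.1 in scivMSC 1 to 3. The pigment gene Pmel, whose exons overlap those of Cdk2 on the other strand, was at 7.51, 12.3 and 3.10 FPKM in control 1 to 3, 30.7, 32.8 and 38.8 in DNCB 1 to 3, 40.9, 55.5 and 132 in scMSC 1 to 3 and 35.3, 41.6 and 66.5 in scivMSC 1 to 3. Pmel was higher in all DNCB-exposed libraries than in control, and the part of Pmel reads in the Cdk2 values was not tested.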
